A study of Mus musculus with 10 samples.

Results

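The genes of mitosis and of the mitotic spindle were followed in activated T cells that lack KLF13, a zinc-finger transcription factor of the Krüppel-like family. The group is a list of 46 genes: cyclins of late cycle, mitotic kinases, kinesins, and genes of the centromere, the kinetochore, anaphase and cytokinesis, together with Foxm1 and Mybl2, which encode transcription factors of such genes. The rule lists them by name and uses no measured value. Of the 46, 45 were measured in both tables of the series, out of 19048 genes found in both, and all 45 passed the filter on dim genes that 12485 genes passed. Ccnb1 matched no probe set with 1 gene and was not analysed here. The 45 lay between the 38.0 and 97.0 percentiles of brightness in the exon-level table and between 47.9 and 97.2 in the gene-level table.

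The arrays held RNA of CD3+ T cells from the spleens of KLF13 knockout mice (KO1 to KO5) and of wild-type mice (WT1 to WT5). All mice were male, 12 weeks old and of the Balb/c background, and the labels name 1 mouse per sample. All cells, of both genotypes, had been stimulated for 4 days with plate-bound antibody to CD3 and soluble antibody to CD28, so no resting cells serve as a baseline. The labels do not say which cells lack Klf13 beyond naming the mice as KO. The values are log2 signals in 3 sets on scales of their own: KO1 and WT1, then KO2, KO3, WT2 and WT3, both in an exon-level table, and KO4, KO5, WT4 and WT5 in a gene-level table normalized apart. Differences are log2 KO minus WT within a set, so that a negative value means a lower signal in KO.

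Klf13 itself was 5.41 in KO1 against 6.03 in WT1. It was 6.16 and 6.07 in KO2 and KO3, against 6.95 and 6.89 in the WT arrays of that set. In KO4 and KO5 it was 6.21 and 6.46, against 7.21 and 7.54 in WT4 and WT5, so each KO array was below each WT array of its set. KO3 stood apart among the exon-level arrays: it correlated with the others at 0.796 to 0.848 across probe sets, against 0.874 to 0.976 among the rest, and its interquartile range was 3.10, against 3.43 to 3.56. Of 10 T cell markers listed, 9 were in both tables. Their summed signal was 13.32 and 13.38 log2 in KO4 and KO5, against 13.28 and 13.44 in WT4 and WT5, but 13.02 and 13.05 in KO2 and KO3, against 14.11 and 14.16 in WT2 and WT3. It was 12.63 in KO1, against 13.12 in WT1, where 8 of the 9 were below 0 with a median of -0.31.

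In a dividing cell, CDK1 with its cyclins starts mitosis, and Aurora and Polo kinases help build the spindle from microtubules and motor proteins. Kinetochores tie the chromosomes to it, and the spindle checkpoint holds the cell until all are attached. The anaphase-promoting complex with CDC20 then marks securin and cyclin B for destruction, separase cuts cohesin, and the central spindle guides cytokinesis. Many of these genes are transcribed mainly in G2 and mitosis, under the DREAM and MuvB complexes with B-MYB and FOXM1, through short promoter elements called CHR (TTTGAA or TTCGAA) and CCAAT boxes, the latter bound by NF-Y. T cells stimulated through CD3 and CD28 divide many times over several days. The level of such a transcript in a culture therefore depends on how many cells are in late cycle as well as on its level in each cell, and bulk arrays cannot tell fewer cells of a kind from less RNA per cell.

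Promoters are shown for the members with the largest differences between KO4 and KO5 on one side and WT4 and WT5 on the other, among those with a CCAAT or TTTGAA match, because these elements are the best known shared feature of mitotic genes. Each line gives the 120 bases before the transcription start, 5′ to 3′ on the gene's strand, from RefSeq on GRCm38.p6. Capitals mark the CCAAT box, which reads ATTGG on the other strand, and the CHR elements TTTGAA, which reads TTCAAA on the other strand, or TTCGAA.
Kif2c (chr4:117178773-117178892, minus strand): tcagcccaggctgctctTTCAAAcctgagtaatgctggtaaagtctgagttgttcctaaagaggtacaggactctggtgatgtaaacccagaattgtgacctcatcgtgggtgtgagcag
Bub1 (chr2:127831860-127831979, minus strand): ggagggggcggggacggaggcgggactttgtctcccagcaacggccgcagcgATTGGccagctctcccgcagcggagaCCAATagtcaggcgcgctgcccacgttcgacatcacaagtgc
Cdca8 (chr4:124936918-124937037, minus strand): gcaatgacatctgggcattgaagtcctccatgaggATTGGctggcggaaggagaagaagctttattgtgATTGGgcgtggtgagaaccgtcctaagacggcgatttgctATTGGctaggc
Aurka (chr2:172370571-172370690, minus strand): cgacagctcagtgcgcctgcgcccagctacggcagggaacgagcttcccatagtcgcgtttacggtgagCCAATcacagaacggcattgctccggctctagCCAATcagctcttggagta
Espl1 (chr15:102296173-102296292, plus strand): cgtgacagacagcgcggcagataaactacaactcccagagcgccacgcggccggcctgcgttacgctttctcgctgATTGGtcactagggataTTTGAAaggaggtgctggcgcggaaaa
Espl1 was added after its sequence was seen, since it shows both elements within the printed stretch. An inverted CCAAT box starts 44 bases before the start and a TTTGAA 27 bases before it. In Cdca8 inverted CCAAT boxes began 85, 51 and 11 bases before the start, and in Aurka CCAAT boxes began 51 and 19 bases before it. In Bub1 the matches were at 68 bases (inverted) and 42 bases, while Kif2c held an inverted TTTGAA at 103 bases and no CCAAT here. The printed stretch ends at the start, and CHR elements also lay past it. TTTGAA began at base 14 after the start in Cdca8 and at base 33 in Aurka, and TTCGAA at base 15 in Bub1.

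RefSeq promoter windows of 300 bases, with 250 before and 50 after the start, were given for 38 of the 46 members, as 40 windows. CCAAT was found in 77.5% of these, against 37.4% of all 32851 windows of the table. TTTGAA was found in 70.0%, against 17.9%, and TTCGAA in 10.0%, against 1.56%. Both CCAAT and TTTGAA were present in 23 of the 38 genes. CACCC, the core of the boxes that Krüppel-like factors bind, was in 20 of the 40 windows, against 57.5% of all. GGGCGG, the GC box, was in 80.0%, against 35.7%. Each motif was counted on both strands, so that CACCC includes GGGTG and the GC box includes the stretch CCGCCC. Neighbouring matches of different motifs may share bases. These shares describe letters in the windows and not binding.

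In KO4 and KO5 every mitotic gene was lower than in both WT4 and WT5. This held for 45 of 45 members, against 26% of all genes tested, and the gap between the higher KO array and the lower WT array was 0.08 to 0.94 log2, with a median of 0.53. The median difference of the members was -0.88 log2, a ratio of 0.543, while the median over all genes was -0.01. In the role groups the median ran between -1.07 for the mitotic kinases and -0.44 for the transcription factors. With limma's moderated test and Benjamini-Hochberg adjustment over 12485 genes, 28 of the 45 fell (62.2%), against a background of 1.99% of all genes called lower, and 0 rose, against 0.721%. At an unadjusted p under 0.05 all 45 were lower (background 10.1%). The 28 had differences of -0.71 to -1.25 with adjusted p of 0.00669 to 0.048, and the other 17 had -0.33 to -0.93 with adjusted p of 0.0521 to 0.285. The count was 14 without WT4 (background 1.71%), 15 without KO4 (1.07%) and 43 without WT5 (3.18%). The WT arrays themselves differed in these genes: 44 of 45 were higher in WT4 than in WT5, against 45.3% of all genes. The median was 0.50, and Cks2 at -0.03 was the exception by its brightest probe set. By its other gene-level probe sets Cks2 was higher in WT4 too, 6.09 against 5.59 and 5.83 against 5.59. KO4 was below KO5 in 40 of 45, by a median of 0.20, against 59.4% of all genes.

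**Figure D1:**
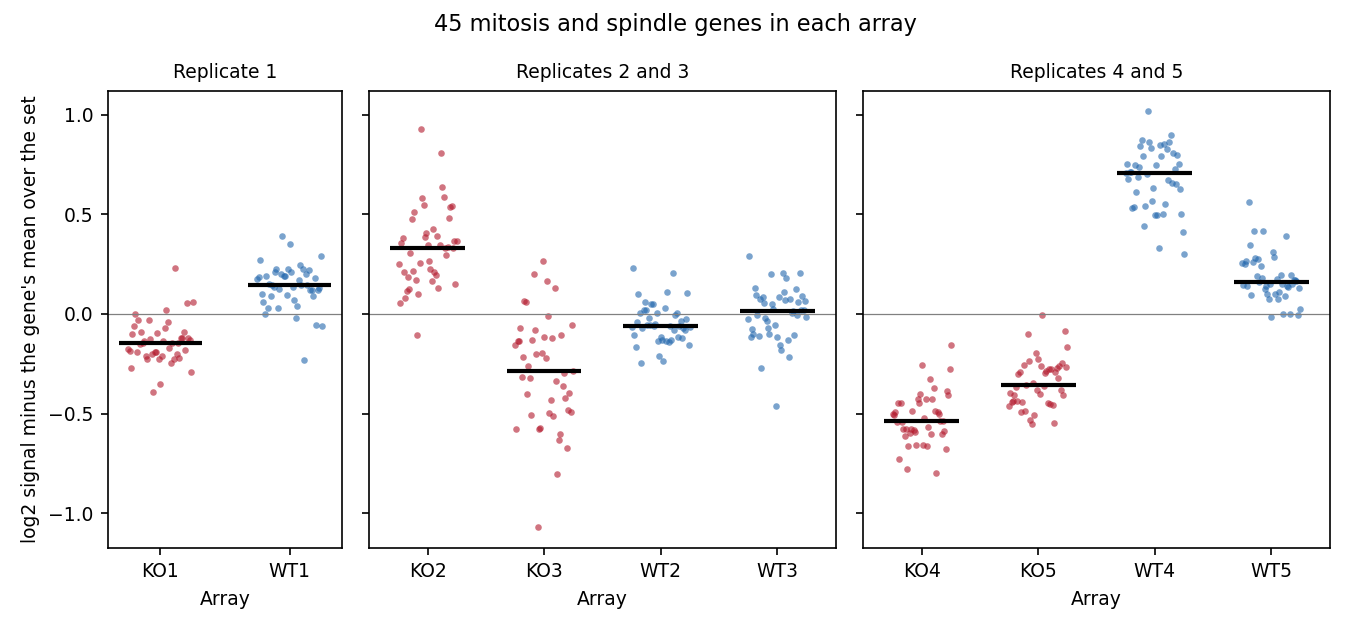
The 45 mitotic genes in every array, KO arrays left of WT arrays, in 3 panels for the 3 sets; each point is a gene's log2 signal minus its mean over the arrays of the set, and black bars are medians. All 3 panels share 1 axis: the medians are -0.54 and -0.36 in KO4 and KO5, against 0.71 and 0.16 in WT4 and WT5, while KO2 lies at 0.33 and KO3 at -0.29, against -0.06 and 0.01 in WT2 and WT3.

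Mki67 and Top2a mark cycling cells. Mki67, which encodes the Ki-67 protein that coats mitotic chromosomes, was 7.22 and 7.26 in KO4 and KO5, against 8.43 and 7.98 in WT4 and WT5, a difference of -0.97 ± 0.16 (SE; adjusted p = 0.0191). Top2a, the topoisomerase that untangles sister DNA, was 8.80 and 8.91, against 10.06 and 9.45 (-0.90 ± 0.19, adjusted p = 0.0417). With the mean of its gene-level probe sets in place of the brightest, Top2a was at -0.60 and no longer passed. That mean takes in a dim probe set, at 2.11 and 1.86 in KO4 and KO5 against 2.40 and 2.17 in WT4 and WT5. Array medians over all gene-level probe sets were 4.18 to 4.30.

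Of the 7 measured cyclins, CDK1 partners and activators, 6 were called lower in KO4 and KO5, against 1.99% of all genes. The other, Cdc25c, was at -0.84 (adjusted p = 0.0637). Cdk1, the kinase that drives entry into mitosis, was 6.27 and 6.31 in KO4 and KO5, against 7.43 and 6.86 in WT4 and WT5. Ccnb2, a B-type cyclin, was 6.62 and 6.73, against 7.88 and 7.43. Cks2, a small subunit of the CDK1 complex, had the largest fall of this group, 4.92 and 5.28 against 6.18 and 6.21 (-1.10 ± 0.15, adjusted p = 0.00909). In this group the lowest WT value exceeded the highest KO value for each gene, and Cdk1 and Ccnb2 differed by -0.86 (adjusted p = 0.0421) and -0.98 (adjusted p = 0.0191). Ccna2, the A-type cyclin, was at -0.93, Cdc25b, a phosphatase that activates CDK1, at -0.88, and Cdca3, a protein that helps degrade WEE1, at -0.87.

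All 4 mitotic kinases and activators were called lower, against 1.99% of all genes. Aurka, the centrosomal Aurora kinase, was 6.0 and 6.12 in KO4 and KO5, against 7.30 and 7.03 in WT4 and WT5, a difference of -1.11 ± 0.14 (adjusted p = 0.00698) and a ratio of 0.464. Tpx2, which activates Aurora A on spindle microtubules, was 6.78 and 6.96, against 8.32 and 7.72 (-1.15 ± 0.19, adjusted p = 0.0184). Nek2, a kinase of centrosome separation, was 6.34 and 6.86, against 7.96 and 7.31 (-1.04 ± 0.23, adjusted p = 0.0467). The 2 KO arrays of Nek2 thus lay 0.52 apart and the WT arrays 0.64 apart, wider than for Aurka. Plk1, the Polo kinase of mitotic entry and exit, fell by 1.03 (adjusted p = 0.0166).

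The chromosomal passenger complex, which corrects faulty attachments, had 3 of 4 genes called lower, against 1.99% of all genes. Cdca8, its borealin subunit, was 5.74 and 5.79 in KO4 and KO5, against 7.03 and 6.74 in WT4 and WT5, and had the smallest adjusted p of all members (-1.12 ± 0.14, adjusted p = 0.00669). Aurkb, the kinase of the complex, was 6.59 and 6.83, against 7.98 and 7.35 (-0.95 ± 0.20, adjusted p = 0.0410). Incenp, its scaffold, fell by 0.73, and Birc5, which encodes survivin, was at -0.68 (adjusted p = 0.0763).

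All 4 spindle checkpoint genes lay below both WT arrays, and 2 were called lower, against 1.99% of all genes. Bub1, the checkpoint kinase, was 5.80 and 5.84 in KO4 and KO5, against 7.41 and 6.52 in WT4 and WT5 (-1.15 ± 0.24, adjusted p = 0.0421). Its WT arrays were 0.89 apart, the widest such gap among the members. Bub1b, which encodes the checkpoint protein BUBR1, was 6.76 and 7.07, against 8.28 and 7.56 (-1.01 ± 0.22, adjusted p = 0.0459). Ttk, the MPS1 kinase, was at -0.93 (adjusted p = 0.0523) and Mad2l1, the MAD2 subunit, at -0.64 (adjusted p = 0.0968).

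At the step to anaphase, 3 of 4 genes were called lower, against 1.99% of all genes. Espl1, which encodes separase, was 5.57 and 5.83 in KO4 and KO5, against 6.98 and 6.54 in WT4 and WT5 (-1.06 ± 0.17, adjusted p = 0.0166). Pttg1, which encodes securin, the inhibitor of separase, was 5.80 and 6.06, against 6.82 and 6.61 (-0.79 ± 0.14, adjusted p = 0.0265). Cdc20, the activator of the anaphase-promoting complex, was 6.60 and 6.62, against 7.63 and 7.15 (-0.78 ± 0.16, adjusted p = 0.0425). Separase and its inhibitor were thus both lower in KO4 and KO5. Ube2c, the ubiquitin-conjugating enzyme of that complex, was at -0.48 (adjusted p = 0.192).

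Centromere and kinetochore genes were called lower in 3 of 7 cases, against 1.99% of all genes. Nuf2, a subunit of the NDC80 complex that grips microtubules, was 6.27 and 6.43 in KO4 and KO5, against 7.73 and 7.07 in WT4 and WT5 (-1.05 ± 0.20, adjusted p = 0.0295). Cenpe, a kinetochore kinesin, was 4.64 and 4.94, against 6.15 and 5.48 (-1.02 ± 0.21, adjusted p = 0.0393). The subunits of the NDC80 complex did not all pass: beside Nuf2, Spc24 fell by 0.71 (adjusted p = 0.0480), while Spc25 was at -0.82 (adjusted p = 0.104) and Ndc80 at -0.62 (adjusted p = 0.0691). Cenpa, the histone H3 variant of centromeres, was at -0.43 (adjusted p = 0.228), and Cenpf was at -0.87 (adjusted p = 0.0748).

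Among spindle motors and microtubule proteins, 2 of 5 were called lower, against 1.99% of all genes. Kif2c, which encodes MCAK, a kinesin that shortens microtubules, had the largest difference of the 45: 5.39 and 5.73 in KO4 and KO5, against 7.05 and 6.58 in WT4 and WT5 (-1.25 ± 0.18, adjusted p = 0.0120), a ratio of 0.420. Hmmr, which encodes a spindle assembly protein, was 5.14 and 5.08, against 6.53 and 5.77 (-1.04 ± 0.21, adjusted p = 0.0399). Kif11, the motor that pushes spindle poles apart, was at -0.76, Aspm, a protein of the spindle poles, at -0.81 and Nusap1 at -0.79, all 3 with adjusted p above 0.05.

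Of the 6 central spindle and cytokinesis genes, 3 were called lower, against 1.99% of all genes. Prc1, which bundles the central spindle, was 6.60 and 6.81 in KO4 and KO5, against 7.99 and 7.36 in WT4 and WT5 (-0.97 ± 0.20, adjusted p = 0.0374). Kif20a, a motor of the central spindle, was 5.57 and 5.85, against 6.90 and 6.37 (-0.93 ± 0.18, adjusted p = 0.0337). Anln, the cleavage furrow scaffold anillin, fell by 0.79 (adjusted p = 0.0375). Racgap1 was at -0.49 (adjusted p = 0.223), while its partners in cytokinesis Kif23 and Ect2 were at -0.80 and -0.92 with adjusted p of 0.0535 and 0.0521.

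Both transcription factor genes stayed short of the threshold. Foxm1 was 5.77 and 5.78 in KO4 and KO5, against 6.46 and 6.18 in WT4 and WT5 (-0.55 ± 0.14, adjusted p = 0.0744). Mybl2, which encodes B-MYB, was 6.11 and 6.10, against 6.57 and 6.29 (-0.33 ± 0.14, adjusted p = 0.285), the smallest difference among the members. Foxm1 passed when WT5 was left out (-0.69) and with the replicate number as a block.

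**Figure D2:**
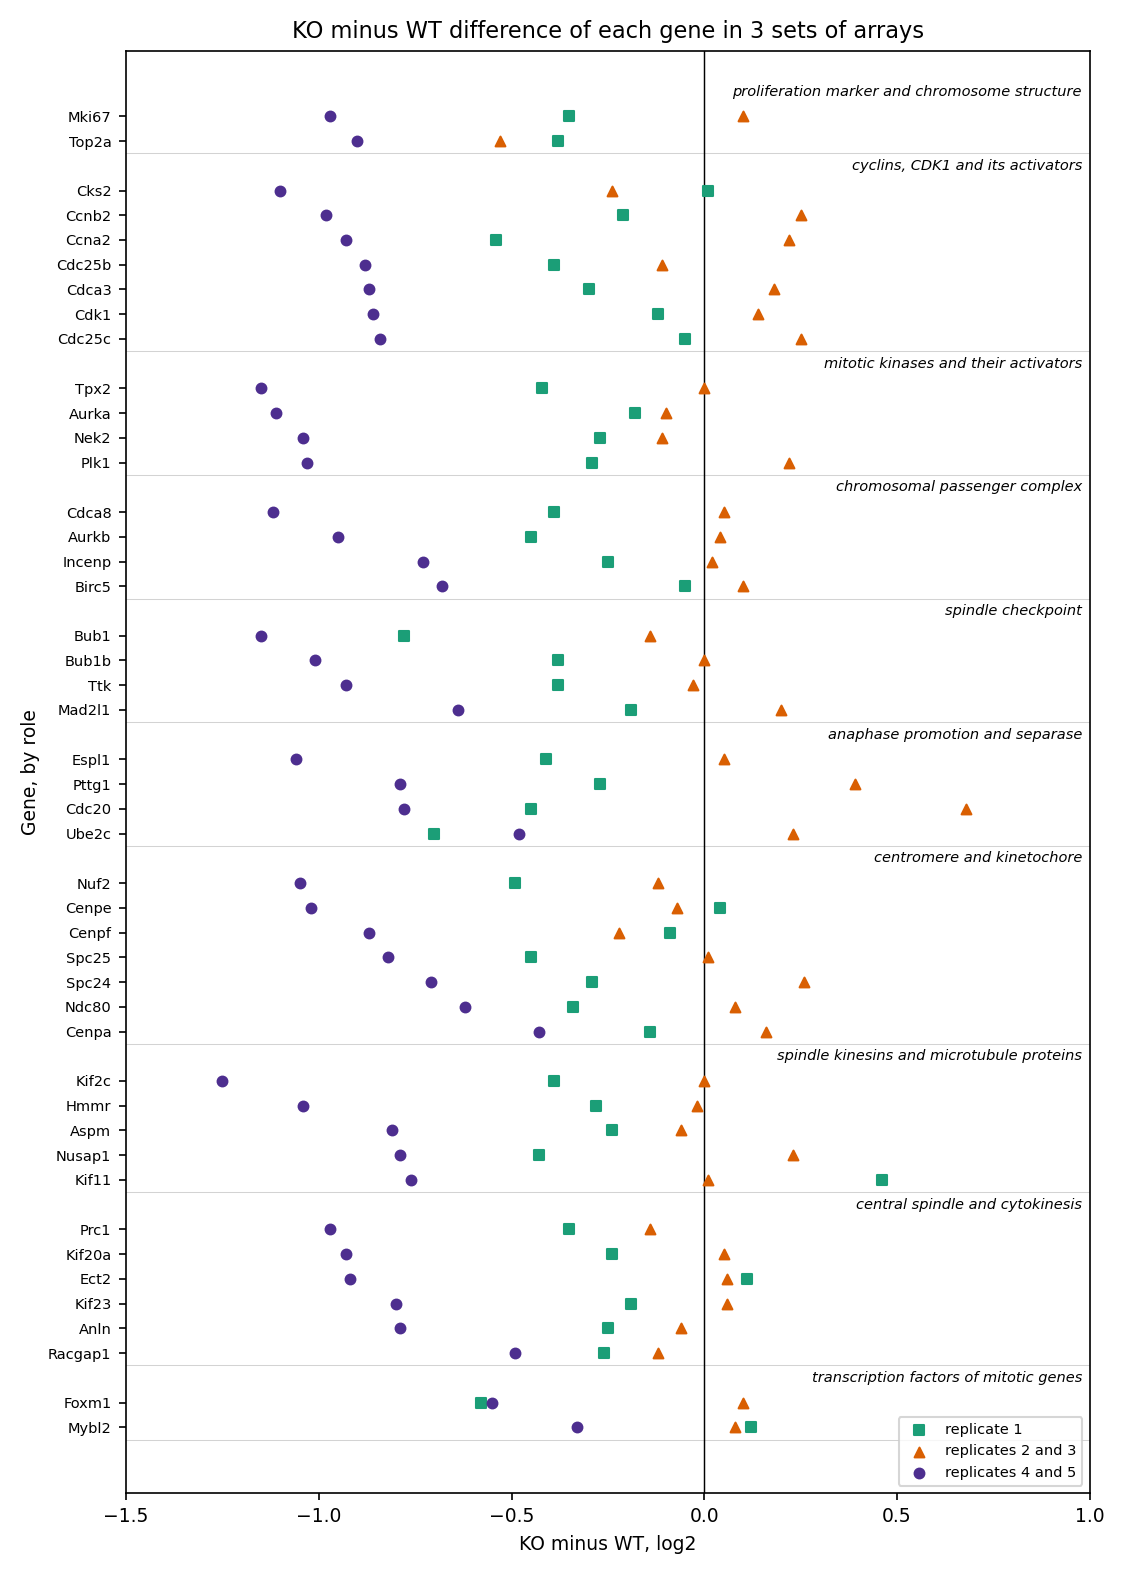
The log2 difference KO minus WT of each of the 45 genes in each of the 3 sets, genes grouped by role; the vertical line marks 0. In replicates 4 and 5 the differences run from -1.25 (Kif2c) to -0.33 (Mybl2), and in replicates 2 and 3 they lie on both sides of 0, from -0.53 (Top2a) to 0.68 (Cdc20).

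In replicates 2 and 3 the members were not lower in KO as a group, and the size of the difference depended on the scaling. On the deposited scale their median difference was 0.05 and 17 of 45 were below 0, while the median over all genes was -0.22. Relative to that shift, with each array's median subtracted, the members' median was 0.28 and 43 of 45 were above 0, with 2 below, against 49.3% of all genes below. In limma's test 0 members and 0 of 12485 genes passed the adjusted threshold in either direction. At an unadjusted p under 0.05, 0 members were lower (background 8.7%) and 1, Cdc20, was higher (background 0.817%). The standard errors of the members were 0.22 to 0.62, against 0.13 to 0.24 in replicates 4 and 5.

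The 2 KO arrays of this set went apart in these genes. KO2 was above both WT2 and WT3 in 42 of 45 members, against 23.0% of all genes, and KO3 was below both in 32, against 61.5%. For 30 members both were true, KO2 above and KO3 below, against 10.1% of all genes. After subtraction of array medians KO2 was above both WT arrays in 44 members (35.5% of all genes). KO3 was then below both in 17 (46.1%) and above both in 24 (48.5%), and KO2 above with KO3 below was found for 16 (11.1%). KO2 exceeded KO3 in 43 of 45, by a median of 0.58, against 59.7% of all genes and a median of 0.19, while WT2 and WT3 differed by a median of -0.05. Without KO3, 20 members were called higher (background 4.70%). Without KO2, 21 were called lower and 2 higher, where 52.0% and 24.9% of all genes were called. KO3 is the array that stood farthest from the other exon-level arrays. KO2 correlated with WT1, WT2, WT3 and KO1 at 0.874 to 0.924, against 0.923 to 0.976 among those arrays.

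Some of these values lean on single probe sets. Of the 724 exon-level probe sets of the members, 24 (3.31%) lay over 3 log2 units from the mean of WT2 and WT3 in KO2 or KO3, against 3.72% of all. A probe set of Bub1 was 14.29 in KO2, against 6.67 and 6.03 in WT2 and WT3, and without it Bub1 lay 0.57 above WT in KO2, in place of 0.87. A probe set of Cdc20 was 13.95 in KO2, against 9.62 and 9.14, and without it the difference of Cdc20 was 0.49 in place of 0.68. In other members the sign changed: without 1 probe set Mybl2 was at -0.20 in place of 0.08 and Cdk1 at -0.01 in place of 0.14. Ect2, at 0.06 with all, was at -0.04 without 1 probe set and at 0.12 without another. By the median over probe sets, a summary added after the values had been seen, KO2 was above the WT mean in 44 members and KO3 below it in 34.

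Bub1 had the widest split, with 7.83 in KO2 and 5.83 in KO3, against 6.84 and 7.10 in WT2 and WT3. Kif2c was 7.58 and 6.31, against 6.94 and 6.95, a mean difference of 0.00. Prc1 and Bub1b had the same shape, with 7.86 and 6.65 in KO2 and KO3, against 7.25 and 7.53 in WT2 and WT3, and with 8.21 and 7.05, against 7.58 and 7.68. In these 4 genes the KO arrays lay on either side of the WT pair. Cdc20 had 7.62 and 7.48 in KO2 and KO3, against 7.0 and 6.75 in WT2 and WT3, so that both KO arrays were above both WT arrays (0.68 ± 0.24, adjusted p = 0.473). Pttg1 was also higher in both, 6.91 and 6.85, against 6.45 and 6.53. Top2a went the other way, with 9.55 and 8.92, against 9.73 and 9.79 (-0.53). In all, 6 members had both KO arrays above both WT arrays (background 11.7%) and 2 had both below (43.1%).

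In replicate 1, with 1 array of each genotype and so no test, 40 of 45 members were lower in KO1 than in WT1, against 53.5% of all genes. The median difference was -0.29, against -0.02 over all genes. The 9 T cell markers had a median of -0.31 in the same pair. Bub1 had the largest fall, 5.25 in KO1 against 6.03 in WT1, followed by Ube2c, 7.40 against 8.10, and Foxm1, 5.49 against 6.07. Kif2c was 5.68 against 6.08, Aurka 6.45 against 6.63 and Mki67 6.96 against 7.31. Kif11 was the highest, 7.17 in KO1 against 6.71 in WT1.

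The exon-level values can be followed down to 724 probe sets, 5 to 46 per member. In replicate 1, 73.3% of them were lower in KO1, against 52.0% of all probe sets with 1 gene. In replicates 2 and 3, 79.8% were higher in KO2 than the mean of WT2 and WT3 (background 38.6%), and 65.5% were lower in KO3 (background 55.7%). Cdc20 was above WT in the mean of KO2 and KO3 at all 10 of its probe sets and Pttg1 at all 9, while Top2a was below at 34 of 40 there and at 38 of 40 in replicate 1. Of the 724, 11 (1.52%) differed by more than 3 log2 units between KO1 and WT1, against 1.08% of all. A probe set of Ect2 was 15.38 in KO1, against 4.24 in WT1, and 3.03 to 4.31 in the other exon-level arrays. A probe set of Cenpe was 14.27 in KO1, against 3.96 in WT1. A pair in Kif11 were 12.04 and 11.44 in KO1, against 7.06 and 6.95 in WT1. Single probe sets set the sign of the mean in Ect2 and Cenpe. Without the named probe set Ect2 was at -0.31 in place of 0.11 and Cenpe at -0.19 in place of 0.04. Kif11 without its pair was at 0.03 in place of 0.46. Other probe sets pulled KO1 down. In Anln a probe set was 3.09 in KO1, against 8.88 in WT1, and without it Anln was at -0.01 in place of -0.25. Without such a probe set Aspm was at -0.11 in place of -0.24 and Espl1 at -0.32 in place of -0.41. By the median over its probe sets each of the 45 members was lower in KO1, against 53.8% of genes, with a median of -0.30, a summary chosen after the values had been seen.

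The 3 sets were then fitted together with the set as a block. All 45 members were below 0, with a median of -0.39, against -0.10 over all genes, but the sign was not kept under every scaling: with quantile normalization Mybl2 and Cdc20 were at 0.05 and 0.01, and with array medians subtracted Mybl2 was at 0.04. By limma's test 0 members passed (adjusted p 0.146 to 0.778), against a background of 0.489% of all genes called lower and 0.0961% higher. At an unadjusted p under 0.05, 11 members (24.4%) were lower, against 12.8%. Top2a had the smallest adjusted p, at -0.65 ± 0.17 (adjusted p = 0.146), and Bub1 the largest difference, at -0.67 ± 0.34. Top2a was also the only member with every KO array below every WT array in all 3 sets, against 10.8% of all genes. The count of members called was 17 without replicates 2 and 3 (background 1.33%) and 7 with array weights (2.88%). Without replicates 4 and 5 it was 0 and the median was -0.08.

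The difference between the KO effects of replicates 4 and 5 and of replicates 2 and 3 was below 0 for all 45 members, with a median of -0.96, against 0.17 over all genes. It ran from -1.45 ± 0.29 for Cdc20 to -0.37 for Racgap1 and -0.38 for Top2a. In limma's interaction test 0 members and 0 genes passed after adjustment (members' adjusted p 0.250 to 0.697). At an unadjusted p under 0.05, 26 members (57.8%) were lower, against 1.71% of all genes. After adjustment 33 members passed without KO3 (background 1.98%) and 20 without KO2 (14.3%). The genes that moved least between the sets include Top2a, Racgap1 and Mybl2, and those that moved most Cdc20, Kif2c, Plk1 (-1.24) and Ccnb2 (-1.22).

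**Figure D3:**
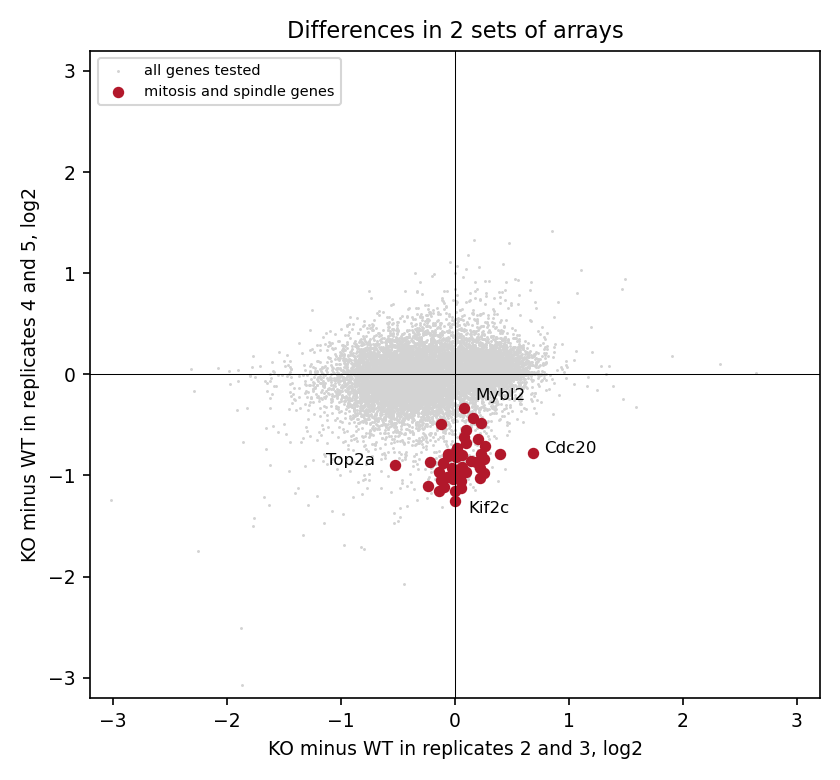
The log2 difference KO minus WT in replicates 4 and 5 (y axis) against that in replicates 2 and 3 (x axis); red points are the 45 mitotic genes and grey points all tested genes within 3.2 log2 units. The mitotic genes lie below 0 on the y axis around 0 on the x axis, with Cdc20 farthest right (0.68) and Kif2c lowest (-1.25).

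The difference in replicates 2 and 3 moved with brightness over all genes. In 5 classes of equal size, dim to bright, the median difference over all genes in replicates 2 and 3 was 0.24, 0.07, -0.27, -0.44 and -0.60. For the mitotic genes in the same classes (1, 9, 16, 15 and 4 members) it was 0.25, -0.06, 0.07, 0.02 and 0.04, so in the 3 brighter classes their median lay above that of all genes. In replicates 4 and 5 the medians of all genes lay between -0.06 and 0.03 in the classes and those of the mitotic genes between -0.95 and -0.77. In replicate 1 they lay between -0.35 and -0.05 for the mitotic genes and between -0.09 and 0.01 for all genes.

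**Figure D4:**
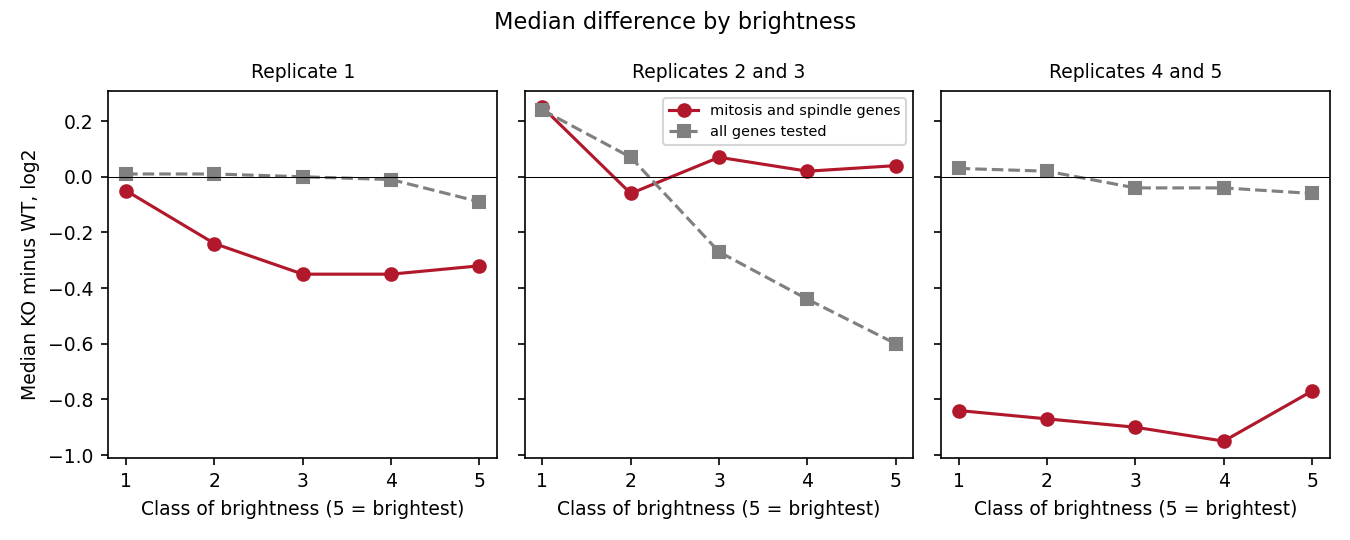
Median log2 difference KO minus WT by class of brightness, 1 (dim) to 5 (bright), in each set, for the mitotic genes and for all genes tested. In replicates 2 and 3 the line of all genes goes down with brightness, with 0.24 in the dimmest class and -0.60 in the brightest, and in replicates 4 and 5 the mitotic genes lie between -0.95 and -0.77 in each class.

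Other genes of mitosis were listed by name. Of 79 tested (87 listed), 28 fell and 0 rose in replicates 4 and 5, against 1.99% and 0.721% of all genes. Their median was -0.75 there and -0.11 in replicates 2 and 3. Spindle and cytokinesis genes fell in 11 of 22 cases. Psrc1, which encodes a microtubule-binding protein, was 6.49 and 6.76 in KO4 and KO5, against 7.90 and 7.97 in WT4 and WT5 (-1.31, adjusted p = 0.00345). Gtse1, another microtubule protein, was 5.19 and 5.33, against 6.54 and 6.45 (-1.24, adjusted p = 0.00345), and Shcbp1 was at -1.31. In Psrc1 and Gtse1, as in the members Top2a and Cks2, both KO arrays were also below both WT arrays in replicates 2 and 3. That was so for 15 of the 79 genes, a smaller share than the 43.1% of all genes. Psrc1 was 8.43 and 8.28 in KO2 and KO3, against 8.68 and 8.88 in WT2 and WT3. Gtse1 was 7.79 and 7.23, against 7.88 and 7.81. Condensin subunits Ncapd2, Ncaph and Ncapg, which compact chromosomes, fell by 1.10, 1.08 and 0.96, as the called 3 of 11 genes in their list. Kinetochore genes fell in 7 of 24 cases (Ska3 -1.11, Knl1 -1.02, Cenpn -0.93), further kinesins in 2 of 7 (Kif18b -1.08, Kif22 -1.01) and further kinases and regulators in 5 of 15 (Cks1b -1.14, Mastl -1.04, Pbk -0.93).

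Lists of neighbouring genes were nearer to 0 in replicates 4 and 5. G1/S and replication genes, which act before mitosis, had 12 of 33 called lower in replicates 4 and 5, against 1.99% of all genes. Their median was -0.63. Rrm2, of deoxynucleotide synthesis, was at -1.06, Ccne2, a cyclin of S phase entry, at -0.97 and Cdc45, of the replicative helicase, at -0.89. In replicates 2 and 3 their median was -0.27, and 12 of 33 had every KO array below every WT array in all 3 sets, against 1 of 45 mitotic genes and 10.8% of all genes; the difference between the lists was not tested. Subunits of the anaphase-promoting complex, listed with Fzr1 and Ube2s, had 0 of 14 called and a median of -0.16. Their median was -0.58 in replicates 2 and 3. Fzr1, an activator of the complex, was at -0.34 in replicates 4 and 5 (adjusted p = 0.257). Genes of the MuvB core and pocket proteins, which repress or activate mitotic promoters, were listed with E2f4, E2f5 and Tfdp1. Of this list 0 of 10 were called, and the median was -0.10. It was -0.64 in replicates 2 and 3. Rbl2, a pocket protein gene, was at -0.33 in replicates 4 and 5 (adjusted p = 0.223). With 1.99% of all genes called lower in replicates 4 and 5, lists of 14 and 10 genes may hold 0 called genes without differing from all genes. In the fit over the 3 sets none of these lists had a called gene, against 0.489% of all genes called lower and 0.0961% higher.

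**Figure D5:**
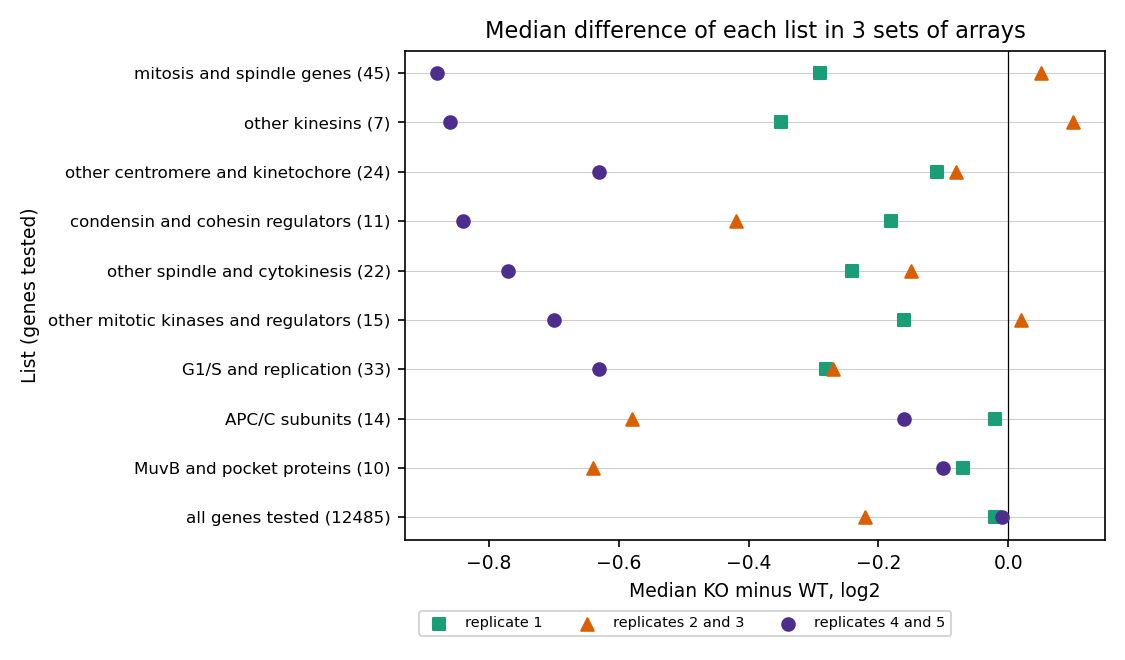
Median log2 difference KO minus WT of the 45 mitotic genes, of 8 other lists and of all genes, in each of the 3 sets; symbols mark the sets and the number of genes tested stands beside each name. In replicates 4 and 5 the mitotic genes lie at -0.88 and the G1/S genes at -0.63, against -0.16 for the anaphase-promoting complex and -0.01 for all genes.

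Markers of other cell types were set beside these values, as log2 of the summed signal, which has no true zero. B and plasma cell markers (9 of 10 measured) were 7.15 and 7.22 in KO4 and KO5, against 7.10 and 7.16 in WT4 and WT5, and 8.58 and 8.80 in KO2 and KO3, against 8.59 and 8.62 in WT2 and WT3. Myeloid and dendritic markers (12 of 12) were 7.25 and 7.34 in KO4 and KO5, against 7.16 and 7.25 in WT4 and WT5. In replicates 2 and 3 they were higher in both KO arrays, 8.60 and 8.83, against 8.35 and 8.35. Basophil and mast cell markers (6 of 6) were 7.15 and 7.21 in KO4 and KO5, against 7.14 and 6.67 in WT4 and WT5. Of the 2 tested, Kit, a receptor gene of mast cells, rose (0.75, adjusted p = 0.0215). The other, Cpa3, was at -0.21 (adjusted p = 0.858), with 5.61 in WT4 and 4.01 in WT5. In replicates 2 and 3 Kit was at -0.11 and Cpa3 at 0.43. The summed markers were 8.05 and 7.77 in KO2 and KO3, against 7.62 and 7.56 in WT2 and WT3.

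Erythroid markers (4 of 8) were 8.70 and 8.77 in KO4 and KO5, against 9.15 and 9.16 in WT4 and WT5. The transferrin receptor gene Tfrc, which dividing T cells also express, was at -0.53 there (adjusted p = 0.0574). Klf1, Alas2 and Epor were at 0.16, 0.27 and 0.28, with adjusted p of 0.646, 0.408 and 0.334. Stromal and endothelial markers (8 of 8) were 8.07 and 8.15 in KO4 and KO5, against 7.84 and 7.89 in WT4 and WT5. The summed NK cell signal (7 of 8 markers) was 8.47 and 8.54 in KO4 and KO5, against 10.47 and 10.32 in WT4 and WT5. Nkg7, a granule protein gene that T cells also express, carried that difference (-2.51). The other tested NK markers Eomes and Fcer1g were at 0.28 and 0.19, with adjusted p of 0.509 and 0.508. The part of such cells in the mitotic values, and that of the T cell markers that were lower in KO1, KO2 and KO3, was not tested.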

How the data were processed

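RNA of 5 KO and 5 WT samples was measured on Affymetrix arrays, labelled with a kit that primes from the poly(A) tail, per the labels' protocols. The deposited values are log2 signals from RMA, according to the submitters' processing notes. The sources used here give neither its version nor any later step. Probe sets of an exon-level table (241576) and a gene-level table (35556) were named from the platform annotation, with symbols updated through RefSeq (GRCm38.p6); those with several genes or none (29479 and 13767) were left out. Of the members, 7 had exon-level and 1 had gene-level probe sets of this kind. A gene's value was the mean over its exon-level probe sets (median 8) and its brightest gene-level probe set. Tested genes had a mean log2 at the 30th percentile or higher in both tables. 0 columns lacked a sample.

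Fits used limma 3.58.1 in R 4.3.3 (lmFit, eBayes; 2-sided; p adjusted by Benjamini-Hochberg over 12485 genes, called under 0.05), over the 3 sets with the set as a block, in replicates 4 and 5, in replicates 2 and 3, and for the difference between these; standard errors (SE) come from the fits. The number of arrays limits the precision, and the p-values measure the spread between these samples. Replicate numbers come from the titles, and the main fits did not use them as pairs. Deviations of samples with 1 number correlated at -0.424 in replicates 2 and 3 and at -0.241 in replicates 4 and 5. With 2 arrays per genotype in a set the deviations mirror each other, so each set gives only 1 such value. These values cannot show whether the numbers pair samples.

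The members, lists and rule for named genes were chosen with earlier results of these data known. Values in every array were given for the 8 members of largest difference over the 3 sets, up to 2 per role by replicates 4 and 5, the highest and lowest in replicates 2 and 3, and Mki67, Top2a, Cdk1, Foxm1, Mybl2 and Klf13; of the other lists, up to 3 called genes or the one of smallest p. Genes named beyond this were chosen after their values were seen. Settings tried were quantile normalization, subtraction of array medians, other filters and probe set summaries, trend and robust eBayes, array weights, other blocks and leaving out arrays. Protein sequences were not used here.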

Additional observations from a re-analysis of the deposited data

Results flagged for a closer look

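Bub1 in KO2 stood away from the other KO arrays. It was 0.87 log2 above the mean of the WT arrays of its set, while KO1, KO3, KO4 and KO5 lay at -0.78, -1.14, -1.17 and -1.13. The gap to the nearest of these was 0.81 of the whole range, above Dixon's critical value of 0.71 for 5 samples. Chance alone gives such a gap in about 1 in 20 groups, and all 45 members and their median were examined in this way. A single Bub1 probe set was 14.29 in KO2, with 2.68 to 6.67 in the remaining arrays of that table, and without it KO2 lay 0.57 above the WT mean.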

How the results depend on the processing

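In replicates 4 and 5 the 28 members called lower became 43 with a crossed replicate block, added after the data were seen, and 41 with the replicate block. The other settings that kept all arrays gave 24 to 36, and leaving out 1 array gave 14 to 43. The members' median of -0.88 ranged from -1.20 to -0.63 without 1 array (-1.20 without WT5). Over the 3 sets the 0 members called lower (background 0.489%) became 7 with array weights (2.88%) and 17 without replicates 2 and 3 of both groups (1.33%). Leaving out 1 array gave 0 to 1, with 1 without KO2 (0.433%). The count stayed 0 with the replicate block and crossed. The median of -0.39 was -0.08 without replicates 4 and 5 of both groups and -0.56 to -0.23 without 1 array. In replicates 2 and 3, leaving out 1 array gave 0 to 21 members called lower and 0 to 20 called higher, against 0 and 0 with all arrays, and both replicate blocks gave 0. The difference between the sets gave 0 to 33 members lower without 1 array, and a median of -1.25 to -0.61. In replicate 1 the 40 members below 0 became 45 by the median over probe sets and 41 with array medians subtracted, both added after the data were seen. Where 1 array was left in a group, it was assumed to vary like the others. Single genes that changed sign over the 3 sets were Mybl2 (0.05 with quantile normalization, 0.04 with array medians subtracted, 0.04 with quantile normalization and the median of probe sets, 0.09 without replicates 4 and 5, 0.00 without KO3 and 0.01 without WT4, in a range of -0.20 to 0.01 without 1 array), Cdc20 (0.01 with quantile normalization, 0.30 without replicates 4 and 5, and 0.04 without WT4, in a range of -0.29 to 0.04 without 1 array) and Cdk1 (0.10 with quantile normalization and the median of probe sets, 0.06 without replicates 4 and 5), and, without replicates 4 and 5, Ccnb2 (0.10) and Pttg1 (0.17). The causes were not tested.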
